A study of Mus musculus with 6 samples.

Results

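Collagens give lung tissue its tensile strength, and around them lies a second set of matrix proteins examined here as 38 genes chosen by name for their place in the matrix. Of these, 35 were measured, out of 18193 genes in all, and each was represented by its brightest probe set. They fell into 9 measured genes of elastic fibres and microfibrils, 3 lysyl oxidases, 7 proteoglycans, 7 basement membrane genes and 9 adhesive or matricellular glycoproteins. Fbn1 and Efemp2 had no probe set named for them in the annotation used, and the probe sets of Loxl2 are assigned to a further gene as well, so these 3 genes were not analysed here.

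The lungs came from C57BL/6 mice aged 6 to 10 weeks, with 2 mice carrying the CC10-rtTA-IL13 transgene and 4 wild-type mice. In the transgenic line the promoter of CC10 (Scgb1a1), a gene of airway club cells, drives a doxycycline-dependent activator that turns on IL13, a cytokine of allergic airway disease. All 6 animals, wild types included, drank water with 2 mg/mL doxycycline for 7 days, and RNA of the whole upper left lobe was hybridised to 1 Affymetrix mouse array per animal. The labels call the samples biological replicates, so the spread is that between animals. Values are log2 RMA values, a scale on which 1 unit is a 2-fold change, and they ran from 2.297 to 15.192 with array medians of 5.277 to 5.305. Probe sets bind with different strength, so values were compared between arrays and never between genes. With so few arrays their number limits the precision.

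Elastic fibres consist of a core of elastin laid on a scaffold of microfibrils, and fibulins and emilins join the pieces. Lysyl oxidases crosslink elastin and collagen. Small leucine-rich proteoglycans bind collagen fibrils and set their thickness, whereas laminins, nidogens and perlecan build the basement membrane under epithelium and around vessels and muscle. Matricellular proteins such as tenascin C and periostin signal to cells more than they bear load, and fibronectin forms the early matrix of repair. In lung most of these genes are expressed by fibroblasts, smooth muscle and mesothelium, and fibronectin also by macrophages.

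The promoters of 20 of the 35 measured genes were taken from a RefSeq table (build GRCm38.p6). A chromosome was left out of this search, whereas the percentages over all promoters given below were not limited in this way. Of these promoters 3 are shown. They belong to the proteoglycan with the steadiest fall, to a fallen fibulin family gene whose promoter holds a STAT motif, and to a gene that rose. Each is the 250 bases before the annotated start, 5′ to 3′ on the plus strand, with motif matches in capitals. The Ogn promoter lies at chr13:49607765-49608014, that of Efemp1 at chr11:28852955-28853204 and that of Emilin1 at chr5:30913536-30913785.
Ogn: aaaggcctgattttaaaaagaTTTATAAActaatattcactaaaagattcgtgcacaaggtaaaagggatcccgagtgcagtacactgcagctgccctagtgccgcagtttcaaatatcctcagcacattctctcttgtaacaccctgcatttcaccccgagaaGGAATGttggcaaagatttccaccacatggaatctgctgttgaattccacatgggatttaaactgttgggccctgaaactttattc
Efemp1: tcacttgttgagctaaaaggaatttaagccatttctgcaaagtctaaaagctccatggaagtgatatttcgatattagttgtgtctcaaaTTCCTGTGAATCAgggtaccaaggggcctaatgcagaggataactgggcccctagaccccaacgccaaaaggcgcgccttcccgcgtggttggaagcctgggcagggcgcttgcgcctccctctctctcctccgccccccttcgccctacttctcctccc
Emilin1: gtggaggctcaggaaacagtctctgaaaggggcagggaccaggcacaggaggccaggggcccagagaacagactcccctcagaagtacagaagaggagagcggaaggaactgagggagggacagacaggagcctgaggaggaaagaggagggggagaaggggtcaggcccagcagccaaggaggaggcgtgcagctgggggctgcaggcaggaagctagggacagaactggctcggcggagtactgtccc
Both strands were searched for the TATA box TATAAA, the STAT palindrome (TTC and GAA with 4 bases between), the AP-1 motif TGANTCA, the TEAD motif GGAATG and the SMAD palindrome GTCTAGAC. In the Ogn promoter 2 overlapping TATA matches begin 229 and 227 bases before the start and a TEAD match begins 86 bases before it. In the Efemp1 promoter a STAT match begins 160 bases before the start and overlaps an AP-1 match at 154. The Emilin1 promoter holds no match to these letters. Among all 32851 promoters of the table, 12.4% hold the TATA letters, 5.85% the STAT palindrome, 6.75% the AP-1 motif, 12.6% the TEAD motif and 0.167% the SMAD palindrome. Among the 20 members with a promoter, 4 held TATA letters (Ogn, Postn, Thbs2 and Tnc), 2 the STAT palindrome (Efemp1 and Bgn), 2 the AP-1 motif (Efemp1 and Tnxb), 3 the TEAD motif (Ogn, Mfap2 and Nid1) and 0 the SMAD palindrome. A member was counted if any of its promoters held a match, whereas the percentages are per promoter, so the 2 are not on the same footing. A match describes letters and shows no binding.

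After 7 days of doxycycline water, more of these matrix genes were lower than higher in transgenic lungs, and the largest rise was that of fibronectin. Of the 35 measured genes 14 fell, 3 rose and 18 did not pass at an adjusted p under 0.05 in limma. The genes were chosen by role but with earlier results of these data known, so their shares are described and not tested. Over all 18193 genes 10.5% were called lower and 8.43% higher. The share of members called lower (40.0%) was above this background and the share called higher (8.57%) was close to it. The members were brighter than most genes, averaging 8.25 to 8.99 per array against a median gene mean of 6.631. With genes below the median mean expression dropped, 2951 genes were still called (3448 with all), so bright genes were called more often than the background share. In that setting 13 members were lower and 3 higher. The median log2 difference of the members was -0.54, against -0.005 over all genes, and 27 of the 35 differences were negative. A call together with a change of at least 2-fold was made for 7 of the 35 members and for 4.92% of all genes. In 19 members both transgenic values lay below every wild-type value, and in 4 both lay above, while over all genes this was so for 22.0% and 19.7%. Without transgenic replicate 1 the median difference of the members was -0.51, and without transgenic replicate 2 it was -0.40. Fewer members passed each time, and so did fewer of all genes.

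**Figure D1:**
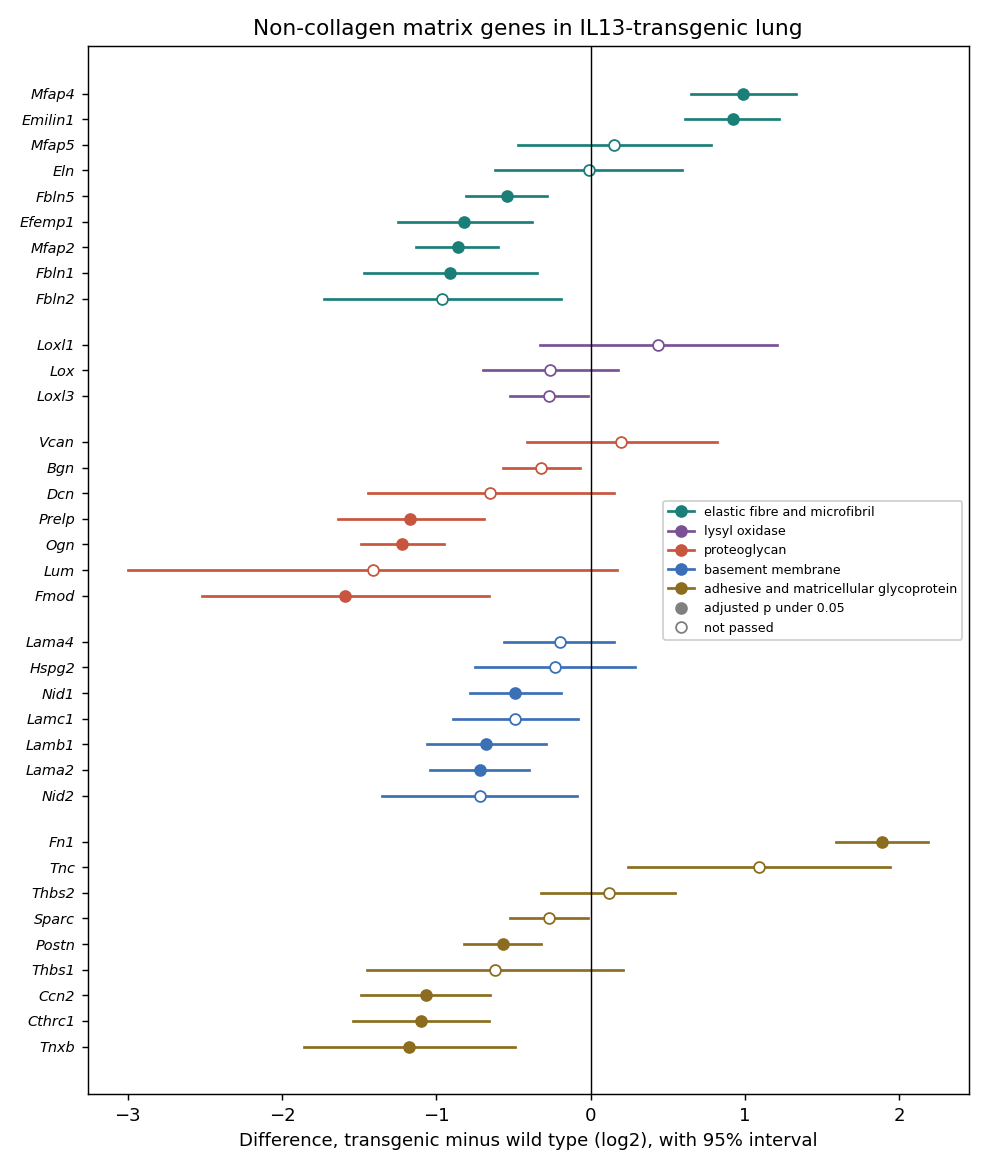
Transgenic minus wild-type difference (log2, horizontal axis) of each of the 35 measured matrix genes with its 95% interval from limma, grouped by role; filled points passed at an adjusted p under 0.05. Fn1, Mfap4 and Emilin1 lie to the right of 0, and the 14 filled points to the left of 0 occur in every group except the lysyl oxidases.

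Because whole lobes were profiled, fewer cells of a type, less RNA per cell and more RNA from other cells cannot be told apart. Markers of other cells moved with genotype. Of 14 fibroblast markers 8 fell and 1 rose, with a mean level of 8.54 and 8.60 in transgenic and 8.98 to 9.36 in wild-type arrays. Itga8, an integrin chain of lung fibroblasts, differed by -1.51 ± 0.14 (SE), and the collagen gene Col14a1 of adventitial fibroblasts by 1.34 ± 0.25, a call that ended without either transgenic replicate. Smooth muscle and pericyte markers had 8 of 12 lower and 1 higher, at 7.04 and 7.24 against 7.59 to 7.93, led by Cnn1 (-2.09 ± 0.33) and Tagln (-1.14 ± 0.15). Macrophage markers had 12 of 13 higher and 0 lower, at 10.74 and 10.85 against 8.45 to 8.56, with Marco up by 3.66 ± 0.20 and Cd68 by 3.59 ± 0.15. Endothelial markers had 5 of 13 lower and 1 higher (8.71 and 8.95 against 9.14 to 9.80), with the receptor genes Ednrb at -1.60 ± 0.20 and Tek at -1.31 ± 0.16. The part of these shifts in the matrix results was not tested. Of 8 mesothelial markers 0 passed, the largest difference being that of Upk3b (-0.87 ± 0.38, adjusted p = 0.16).

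Heart and fat markers differed most among the animals of each genotype. Heart muscle markers averaged 7.00 in transgenic replicate 1 and 5.03 in replicate 2, and 8.27, 7.62, 8.01 and 9.70 in wild-type replicates 1 to 4. Of these 9 genes 5 were lower and 0 higher, led by Myh6 (-3.71 ± 0.89, not passed without wild-type replicate 1) and Tnnt2 (-3.07 ± 0.80, not passed without transgenic replicate 2 or wild-type replicate 1, 3 or 4). Of 6 adipocyte markers 2 were lower and 0 higher, namely Thrsp (-2.96 ± 0.75, not passed if transgenic replicate 2 or wild-type replicate 1 was omitted) and Cidec (-2.85 ± 0.47), and their mean ran from 5.63 in transgenic replicate 2 to 9.27 in wild-type replicate 4, with 7.39 in transgenic replicate 1 and 7.29 in wild-type replicate 2. Epithelial markers moved less as a list. Alveolar markers had 3 of 10 lower and 0 higher (12.68 and 12.77 against 12.88 to 13.00), with Rtkn2 at -0.90 ± 0.14 and Hopx at -0.89 ± 0.11, and airway markers 2 of 10 lower and 0 higher (7.57 and 7.88 against 7.77 to 8.41), namely Cyp2f2 (-1.63 ± 0.31, not passed without transgenic replicate 1) and Scgb3a2 (-1.58 ± 0.18). Il13 read 4.24 and 4.09 in transgenic and 3.72 to 4.03 in wild-type arrays (0.32 ± 0.12, adjusted p = 0.11). Scgb1a1 read 14.67 and 15.01 in transgenic and 14.82 to 15.14 in wild-type arrays (-0.19 ± 0.14, adjusted p = 0.40). No source used here says whether the Il13 probe set covers the transgene's transcript, so it checks nothing about the labels.

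**Figure D2:**
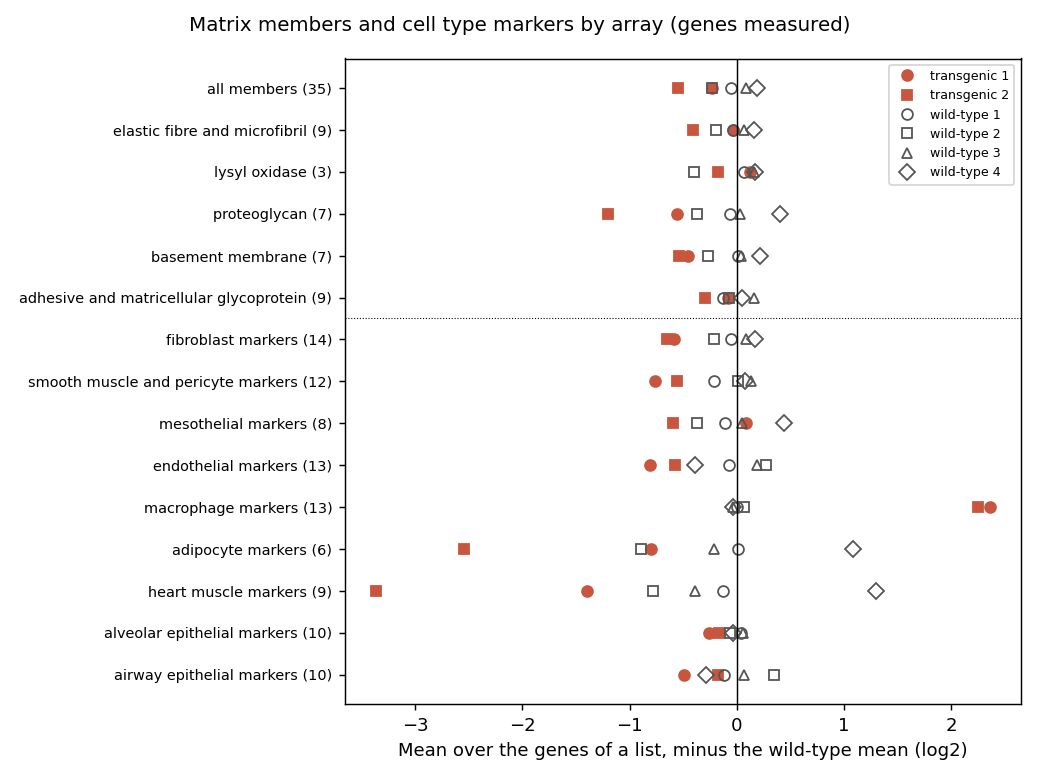
Mean over the genes of each list in every array, minus the wild-type mean (log2, horizontal axis); filled symbols are the 2 transgenic and open symbols the 4 wild-type arrays, with the number of genes in parentheses. Macrophage markers stand to the right in both transgenic arrays, and heart and fat markers spread widely within each genotype, lowest in transgenic replicate 2 and highest in wild-type replicate 4.

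Fibronectin showed the largest rise among the members. Fn1 read 12.09 and 12.42 in transgenic replicates 1 and 2, and the wild types, listed here and below from replicate 1 to 4, read 10.38, 10.50, 10.27 and 10.29. The genotypes lay far apart, with the wild-type values within 0.24 of each other. The difference was 1.89 ± 0.13 (95% interval 1.59 to 2.19), a 3.71-fold rise (adjusted p = 5.6e-05, n = 2 and 4). A second, dimmer probe set of Fn1 rose by 1.78 ± 0.18. With any array left out the rise stayed between 1.73 and 2.05. The 2 other risen members belong to elastic fibres.

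Among the 9 elastic fibre genes 2 rose, 4 fell and 3 did not pass. Mfap4, a microfibril-associated glycoprotein that binds elastin and collagen, read 9.96 and 9.87 in transgenic and 8.98, 9.19, 8.87 and 8.68 in wild-type arrays. Emilin1, a glycoprotein at the interface of elastin and microfibrils, read 7.47 and 7.70 against 6.57, 6.86, 6.71 and 6.54. In both genes every transgenic value lay above every wild-type value. Mfap4 rose 1.99-fold (log2 difference 0.99 ± 0.15, adjusted p = 0.0029) and Emilin1 1.89-fold (0.92 ± 0.13, adjusted p = 0.0026). Both passed with any array left out, the adjusted p reaching at most 0.040 for Mfap4 and 0.033 for Emilin1. Emilin1 has a second, dimmer probe set, which differed by 0.22 ± 0.13 and did not pass, and the mean of both gave 0.57 (adjusted p = 0.013).

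Mfap2, which encodes a small protein of the microfibril itself, went the opposite way. It read 8.52 and 8.24 in transgenic arrays and 9.22, 9.24, 9.21 and 9.29 in wild-type arrays, where it varied by 0.08 in all. It fell 1.82-fold (-0.86 ± 0.12, adjusted p = 0.0017) and passed with any array left out. A second, dimmer probe set of Mfap2 differed by -0.08 ± 0.11 and did not pass, and the mean of both gave -0.47 (adjusted p = 0.013). Fbln5, a fibulin that tethers elastin to microfibrils and to cells, read 10.14 and 10.32 against 10.79, 10.64, 10.87 and 10.80. Its fall was smaller (-0.54 ± 0.12, adjusted p = 0.014) and did not pass without transgenic replicate 1 (adjusted p = 0.12). Its dim second probe set differed by -0.19 ± 0.13. Efemp1, or fibulin 3, read 10.87 and 10.47 against 11.43, 11.18, 11.53 and 11.83, and its difference of -0.82 ± 0.19 (adjusted p = 0.020) did not pass without transgenic replicate 2 (0.16). Fbln1 read 7.62 and 6.77 against 8.11, 7.76, 8.37 and 8.17. Its lower transgenic value came from replicate 2, and the difference of -0.91 ± 0.24 (adjusted p = 0.034) shrank to -0.48 without that array (adjusted p = 0.24). Its call was lost as well when wild-type replicate 1, 3 or 4 was omitted (adjusted p = 0.077, 0.078 and 0.056). The remaining probe sets of Fbln1 differed by -0.32 ± 0.23 and 0.12 ± 0.11.

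Elastin itself showed no detectable difference. Eln read 8.15 and 7.75 in transgenic arrays, inside the wild-type range of 7.49 to 8.47, and its difference was -0.01 with an interval of -0.62 to 0.59. Mfap5 was 9.48 in transgenic replicate 1, above the wild-type values of 8.48 to 9.15, and 8.52 in replicate 2, inside them (0.15 ± 0.27, adjusted p = 0.75). Fbln2 read 6.23 and 5.43 in transgenic arrays and 6.86, 6.24, 6.57 and 7.48 in wild-type arrays. Both of its transgenic values were the lowest of the 6 by a margin that wild-type replicate 2 nearly closed, and it did not pass (-0.96 ± 0.34, adjusted p = 0.084). The difference of Fbln2 was -1.14 without wild-type replicate 2 (adjusted p = 0.033) and -0.56 without transgenic replicate 2 (0.45), and the mean of its probe sets gave -0.42.

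None of the 3 measured lysyl oxidases passed. Lox, the founding crosslinking enzyme, read 8.85 and 8.62 against 9.33, 8.62, 9.11 and 8.92 (-0.26 ± 0.19, adjusted p = 0.40). Loxl1, which acts on elastin, read 9.47 and 8.89 against 8.65, 7.99, 9.01 and 9.31 (0.44 ± 0.34, adjusted p = 0.42). Loxl3 was the steadiest of the 3, at 6.51 and 6.44 against 6.66 to 6.85. The genotypes did not overlap for Loxl3, yet its difference of -0.27 ± 0.11 missed the threshold (adjusted p = 0.13). Their intervals ran from -0.70 to 0.18 for Lox, from -0.33 to 1.21 for Loxl1 and from -0.52 to -0.02 for Loxl3.

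Proteoglycans had the lowest median of the groups (-1.17), with 3 of 7 lower, 0 higher and 4 not passed. Ogn, or osteoglycin, read 11.24 and 11.18 in transgenic arrays and 12.54, 12.34, 12.30 and 12.55 in wild-type arrays. Values within a genotype differed far less than the genotypes did. Ogn fell 2.33-fold (-1.22 ± 0.12, 95% interval -1.49 to -0.95, adjusted p = 3.2e-04), and its second probe set fell by 1.17 (SE 0.12). With any array left out the difference stayed between -1.27 and -1.18. Prelp, a proteoglycan that anchors basement membranes to collagen, read 9.25 and 8.73 against 10.38, 10.34, 10.13 and 9.76. It fell 2.24-fold (-1.17 ± 0.21, adjusted p = 0.0064), and the call ended without transgenic replicate 2 (-0.90, adjusted p = 0.066). The second probe set of Prelp differed by -0.45 ± 0.15 and did not pass. Fmod, or fibromodulin, which shapes collagen fibrils, read 7.07 and 5.52 against 8.22, 7.45, 7.61 and 8.26. The transgenic animals were further apart for Fmod than for any other member. Its difference of -1.59 ± 0.40 (adjusted p = 0.028) was -0.82 without transgenic replicate 2 (adjusted p = 0.18) and -2.36 with only transgenic replicate 2. Omitting wild-type replicate 1 gave an adjusted p of 0.070. Fmod had 5 further probe sets, which differed by -0.39 to -0.72, and 2 of them passed as lower.

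The other 4 measured proteoglycans did not pass. Lum, or lumican, read 6.91 and 5.89 in transgenic arrays and 7.40, 6.44, 7.99 and 9.42 in wild-type arrays. Wild-type replicate 4 was highest and transgenic replicate 2 lowest, the same arrays as at the ends of the fat and heart markers, and the genotypes overlapped. The difference of -1.41 had an interval of -3.00 to 0.17 (adjusted p = 0.20). It was -1.87 without wild-type replicate 2, which passed (adjusted p = 0.046), but -0.88 without wild-type replicate 4 (0.23) and -0.90 without transgenic replicate 2 (0.60). Dcn, or decorin, read 11.58 and 10.81 against 11.68, 11.14, 12.12 and 12.42, with the same arrays at its ends (-0.65 ± 0.35, adjusted p = 0.24). Setting only transgenic replicate 1 against the wild types gave -0.26 for Dcn, only replicate 2 gave -1.03, and the mean of its probe sets gave -0.20. Bgn, or biglycan, was tighter at 11.82 and 11.65 against 11.98 to 12.16, did not overlap and did not pass (-0.32 ± 0.11, adjusted p = 0.080). Vcan, the large hyaluronan-binding versican, overlapped fully at 5.91 and 5.53 against 4.99 to 6.08 (0.20 ± 0.27, adjusted p = 0.65), and 7 further probe sets of Vcan, all dimmer, did not pass either.

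**Figure D3:**
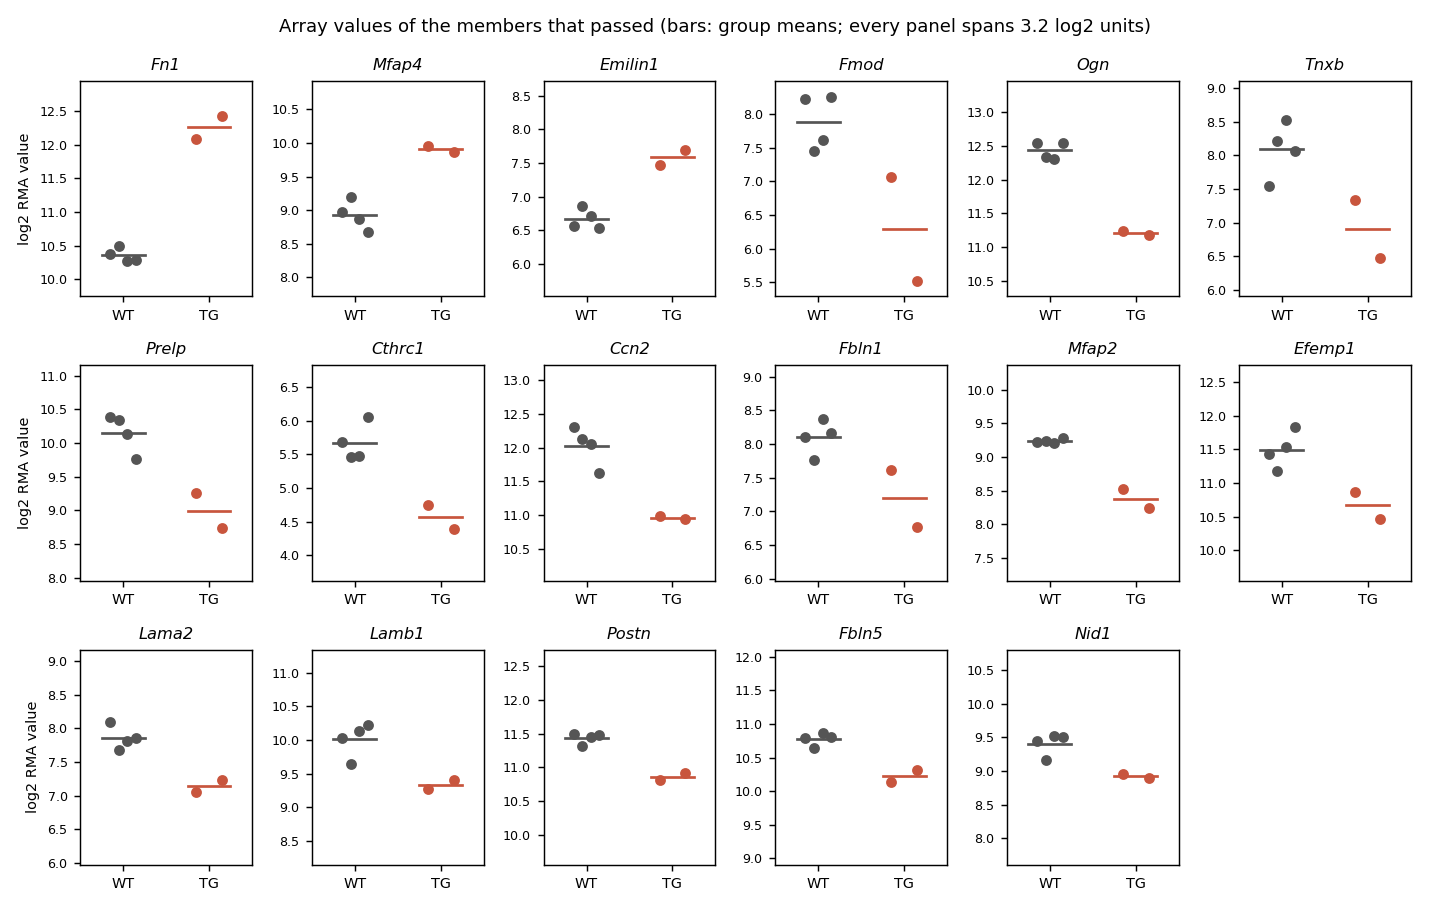
Log2 RMA values (vertical axes, all of the same span) of the 17 members that passed, with wild-type arrays in grey, transgenic arrays in red and bars at the group means. The 3 risen genes come first; the transgenic points of Fmod, Tnxb and Fbln1 are far apart, whereas those of Ogn, Ccn2 and Nid1 nearly coincide.

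All 7 basement membrane genes had negative differences, of which 3 passed. Lama2, the laminin chain of muscle and mesenchymal basement membranes, read 7.05 and 7.23 in transgenic and 8.09, 7.67, 7.81 and 7.86 in wild-type arrays. It fell 1.65-fold (-0.72 ± 0.14, adjusted p = 0.0088), and the call ended without transgenic replicate 1 (adjusted p = 0.092). Lamb1, a beta chain shared by many laminins, read 9.27 and 9.40 against 10.03, 9.65, 10.14 and 10.22 (-0.68 ± 0.17, adjusted p = 0.025). Nid1, or nidogen 1, which links laminin to collagen IV, read 8.95 and 8.89 against 9.44, 9.17, 9.52 and 9.50 (-0.49 ± 0.13, adjusted p = 0.032). No transgenic value of these 3 genes reached a wild-type value. The calls of Lamb1 and Nid1 were near the threshold and ended without either transgenic replicate (adjusted p = 0.17 and 0.095 for Lamb1, 0.14 and 0.16 for Nid1) and without wild-type replicate 1 or 3 (both 0.061 for Lamb1, both 0.079 for Nid1), and for Nid1 also without wild-type replicate 4 (0.053). Of the further probe sets, Lamb1 had 1 that passed as lower (-0.73 ± 0.18) and 2 that did not pass (-0.48 ± 0.16 and 0.17 ± 0.13), and Nid1 had 1 that passed as lower (-0.73 ± 0.18) and 1 that did not (-0.06 ± 0.20).

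Lamc1, the gamma chain found in most laminins, read 7.82 and 8.02 against 8.51, 8.04, 8.38 and 8.69, just below the lowest wild-type value, and did not pass (-0.49 ± 0.18, adjusted p = 0.096). Without wild-type replicate 2 its adjusted p was 0.020. Lama4, a laminin chain of vessels, overlapped at 8.11 and 7.96 against 7.91 to 8.43 (-0.20 ± 0.15, adjusted p = 0.42). Hspg2, which encodes perlecan, read 8.87 and 8.85 against 8.73 to 9.63 (-0.23 ± 0.23, adjusted p = 0.54). Nid2 was dim, with transgenic values of 5.23 and 4.37 below the array medians and wild-type values of 5.07 to 5.86 (-0.72 ± 0.28, adjusted p = 0.11), passing at -0.87 without wild-type replicate 2 (0.044). Without transgenic replicate 2 the difference of Nid2 was -0.29 (adjusted p = 0.59), and without transgenic replicate 1 it was -1.15 (0.062).

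Among the matricellular genes beside Fn1, 4 fell and 4 did not pass. Ccn2, the connective tissue growth factor, read 10.98 and 10.94 in transgenic arrays and 12.31, 12.13, 12.06 and 11.62 in wild-type arrays. The transgenic animals were within 0.04 of each other, and both were below the lowest wild-type value. Ccn2 fell 2.10-fold (-1.07 ± 0.18, adjusted p = 0.0051) and passed with any array left out (adjusted p at most 0.0495). Postn, or periostin, is a gene that IL13 is known to induce in cultured airway epithelial cells and fibroblasts. Here it read 10.81 and 10.91 against 11.49, 11.31, 11.45 and 11.48. It fell 1.49-fold (-0.57 ± 0.11, adjusted p = 0.0084), and did not pass without transgenic replicate 1 (0.081).

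Cthrc1, a secreted protein of activated fibroblasts, read 4.75 and 4.39 in transgenic and 5.68, 5.46, 5.48 and 6.06 in wild-type arrays. Its transgenic values were below the array medians, where RMA values compress differences. It fell 2.15-fold (-1.10 ± 0.19, adjusted p = 0.0058), with an adjusted p of 0.063 without transgenic replicate 2. Tnxb, or tenascin X, a tenascin of loose connective tissue, read 7.34 and 6.48 against 7.54, 8.21, 8.53 and 8.07. The nearest values of the genotypes, those of transgenic replicate 1 and wild-type replicate 1, were close. Its difference of -1.18 ± 0.30 (adjusted p = 0.028) was -0.75 without transgenic replicate 2 (adjusted p = 0.22), and without wild-type replicate 3 the adjusted p was 0.056.

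Tenascin C was the other matricellular gene with higher values in both transgenic animals. Tnc, which appears in injured and remodelling tissue, read 7.05 and 6.56 in transgenic and 4.87, 5.57, 6.02 and 6.40 in wild-type arrays. The genotypes did not overlap, but the wild-type animals ranged over 1.52, and the difference of 1.09 ± 0.37 did not pass (adjusted p = 0.076). Without wild-type replicate 4, the highest of the wild types, it passed (adjusted p = 0.024). Sparc, a collagen-binding matricellular protein, read 12.40 and 12.33 against 12.55 to 12.71 (-0.27 ± 0.11, adjusted p = 0.13). A second bright probe set of Sparc fell by 0.52 (SE 0.14) and passed with an adjusted p of 0.045 over all probe sets, and the third, much dimmer, differed by 0.25 ± 0.12. Thbs1, or thrombospondin 1, an activator of latent TGF-beta, overlapped at 7.74 and 7.29 against 8.10, 7.96, 9.02 and 7.47 (-0.62 ± 0.36, adjusted p = 0.28). Thbs2 stayed below 5 on every array, at 4.60 and 4.42 against 4.11 to 4.82 (0.12 ± 0.19, adjusted p = 0.73).

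**Figure D4:**
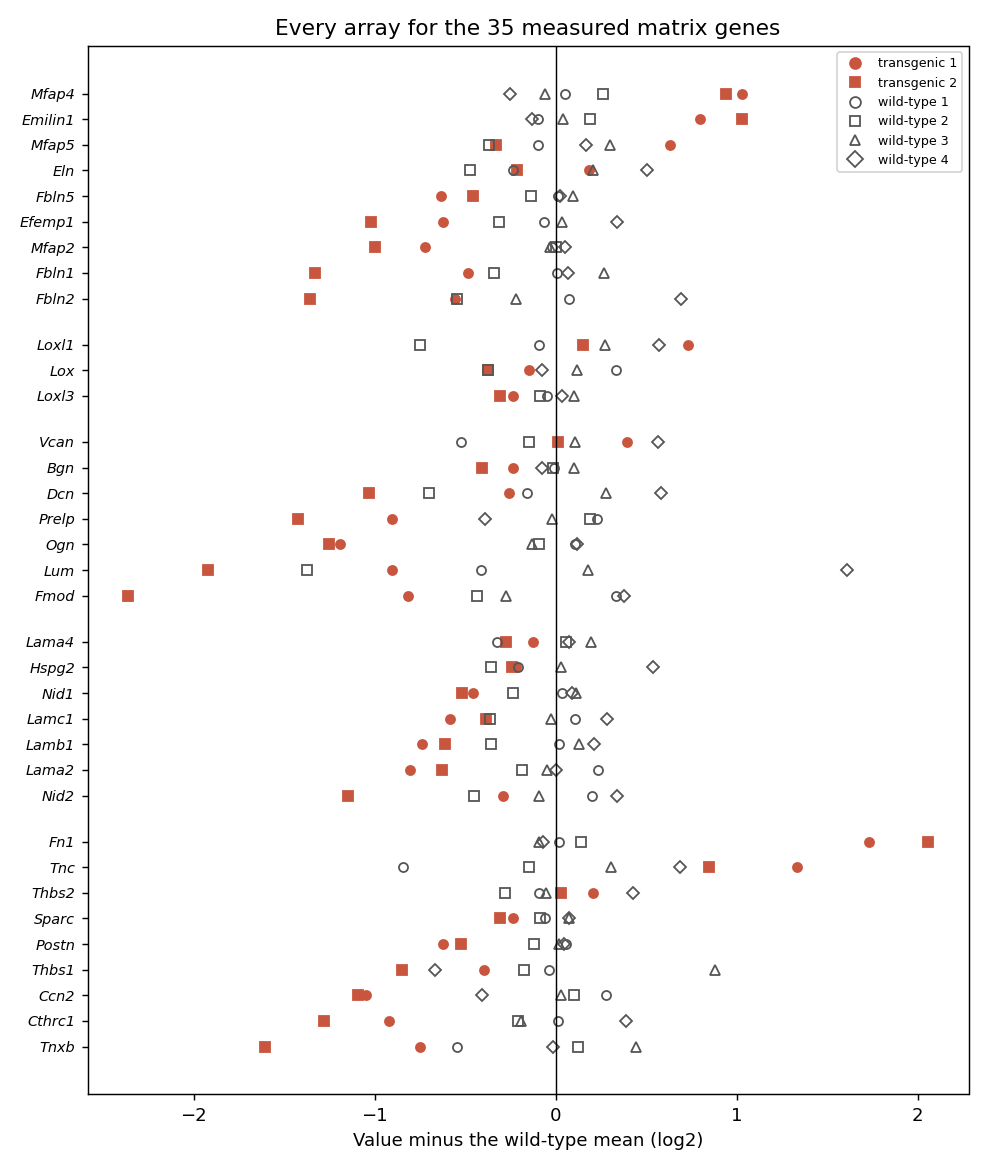
Value of each member in every array minus its wild-type mean (log2, horizontal axis), grouped by role; filled symbols are transgenic and open symbols wild-type arrays, with a symbol shape per replicate. Open squares (wild-type replicate 2) often lie leftmost among the wild types, and open diamonds (wild-type replicate 4) often rightmost.

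The animals of a genotype differed in a shared direction over many matrix genes. Transgenic replicate 1 was above transgenic replicate 2 in 28 of the 35 members, against 49.3% of all genes. Wild-type replicate 4 had the highest wild-type value in 17 members (48.6%, against 31.3% of all genes). Wild-type replicate 2 had the lowest in 22 of the 35 members, and in 5626 of all 18193 genes. The median SD between wild-type animals was 0.280 for members and 0.152 for all genes. Mesothelial markers had the same arrays at their ends, with means of 9.57 in wild-type replicate 4 and 8.53 in transgenic replicate 2, as did the heart and fat markers given above. With wild-type replicates 2 and 4 both left out, 14 members were lower and 4 higher. Over all genes 2968 were then called in either direction, against 3448 with all arrays. The part of the mesothelial, heart and fat markers in the matrix values was not tested.

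**Figure D5:**
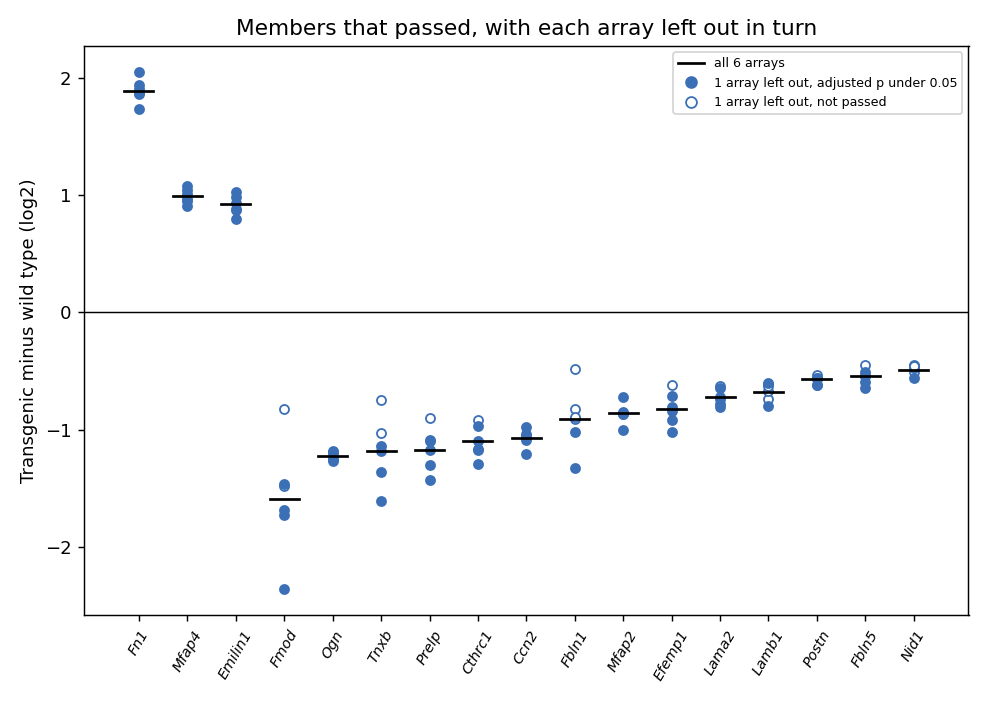
Difference between genotypes (log2, vertical axis) of the 17 members that passed, with all 6 arrays (black bar) and with each array left out in turn (points, filled where the adjusted p was under 0.05). Fn1, Mfap4, Emilin1, Ogn, Ccn2 and Mfap2 have only filled points, and the points of Fmod spread from -2.36 to -0.82.

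Matrix genes outside the 35 were counted for comparison, and 22 of 91 were lower, 4 higher and 65 did not pass, with a median of -0.17. Over all genes 10.5% were lower and 8.43% higher, so the share lower was above the background and the share higher below it. The share lower among further basement membrane genes was 9 of 23, with 0 higher and a median of -0.47. Its largest falls were those of the netrin gene Ntn4 (-1.13 ± 0.11), the integrin ligand gene Npnt (-0.88 ± 0.14, adjusted p = 0.053 without transgenic replicate 1) and the peroxidasin gene Pxdn (-0.86 ± 0.12). Other elastic fibre genes had 2 of 17 lower and 1 higher, close to the shares over all genes. Ltbp4, which helps to deposit elastin and binds latent TGF-beta, read 7.77 and 7.65 against 9.07 to 9.28 and fell 2.73-fold (-1.45 ± 0.11, adjusted p = 8.8e-05). Emilin2, a relative of the risen Emilin1, read 7.82 and 7.87 against 6.05 to 6.71 and rose 2.84-fold (1.51 ± 0.19, adjusted p = 0.0013), and Adamts10, a microfibril-binding protease-like protein, differed by -0.76 ± 0.20 (adjusted p = 0.035), which was lost if any array but wild-type replicate 1 or 2 was omitted.

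Other proteoglycan and hyaluronan genes had 5 of 23 lower and 2 higher. The falls were led by Esm1, an endothelial proteoglycan (-1.99 ± 0.28), and by Ecm2 (-1.70 ± 0.16) and Omd (-1.56 ± 0.24), both small leucine-rich genes like Ogn. The transgenic values of Ecm2 (3.85 and 4.31) were low on the array. Among other adhesive and matricellular genes 6 of 28 were lower and 1 was higher. The higher one was the follistatin-like gene Fstl1 (1.27 ± 0.21, adjusted p = 0.056 without transgenic replicate 1), and the largest falls were those of the integrin ligand gene Edil3 (-1.27 ± 0.19) and of Ccn3 (-1.11 ± 0.27), a relative of Ccn2 whose call was lost if transgenic replicate 2 or wild-type replicate 1 was omitted. With either transgenic replicate left out fewer of these 91 genes were called, and so were fewer of all genes.

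The probe sets not chosen gave a partial check. The 17 called members had 18 further probe sets in 10 genes, of which 16 had the same sign, 6 passed in the same direction and 0 in the opposite one. In the authors' deposited table, 3 of the 35 members have a q-value under 0.05, namely Ogn (0.042), Mfap4 (0.043) and Postn (0.048), and 2.67% of all genes do. For Fn1 the authors' deposited table gives a q-value of 0.22.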

How the data were processed

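RNA was extracted with TRIzol and biotinylated cRNA hybridised, per the labels' protocols. The authors deposited log2 RMA values for 45037 probe sets on each of 6 arrays (RMA is named in the submitters' processing notes, with no version). They also deposited a table with a q-value and a log2 difference per probe set, per the file headers, which do not name the test. Its 6 columns of single arrays match no label and were not used. The deposited values were used as they are. A single gene symbol is given for 34945 probe sets, several for 932 and none for 9160. Of the probe sets with a single symbol 34741 were matched by Entrez ID and took the RefSeq symbol. Keeping 1 probe set per gene, that with the highest mean of the 6 arrays, left 18193 genes.

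The test was that of limma 3.58.1 under R 4.3.3, with 4 residual degrees of freedom and p-values adjusted by Benjamini-Hochberg over all genes. Errors after ± are moderated SEs. A permutation of single genes over the 15 splits, with its exact one-sided p doubled, cannot go below 0.133. When 1 transgenic array is left out, the other is assumed to vary like the wild types. On simulated data of 18193 genes, 18% of genes changed by 0.5 log2 units were recovered, 92% at 1 and 98% at 2. Of 160 calls 6 were unchanged genes. The simulated noise was independent between genes, and fewer genes were changed than were called here. Recovery was not estimated for the members, whose wild-type animals varied more (median SD 0.280, against 0.152 for all genes). The members and lists were chosen with earlier results of these data known, and lists are described by counts with no set test. All members may be named; from other matrix lists the 3 and from marker lists the 2 called genes with the largest differences are named, or the largest where none passed. Alternatives were filters on low values, normalization again, centring, an intensity trend, robust moderation, other probe set rules, a block for replicate numbers, and omission of arrays. Plots were made in Python 3.11.15 (matplotlib 3.10.9).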

Additional observations from a re-analysis of the deposited data

Results flagged for a closer look

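Of 66 genes named in the report, 1 had a wild-type value far from the other wild types, which chance gives in about 1 of 20. The endothelial receptor gene Tek read 10.82 in wild-type replicate 4, against 11.20 to 11.24 in the other wild-type animals.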

How the results depend on the processing

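Of the 17 called members 6 passed under all 17 alternatives (Fn1, Mfap4, Emilin1, Mfap2, Ogn and Ccn2), and 0 turned direction. Of the 18 others, 8 passed under at least 1. Leaving out 1 array gave 1311 to 3558 called genes (3448 with all), 9 to 21 called members (17), 6 to 18 lower members (14), 3 to 4 higher members (3), 13 to 32 called genes of the other matrix lists (26) and a proteoglycan median of -1.25 to -0.82 (-1.17). Deviations of same-numbered arrays from their group means correlated at -0.076 and 0.274 across genes. With 2 transgenic arrays these deviations mirror each other, so the values cannot show whether replicate numbers pair the animals. The replicate block sets the transgenic animals against wild-type replicates 1 and 2 alone. It called 19 members, 5 of them higher, and 3759 of all genes (3448 in the main fit). It added Loxl1, Tnc, Fbln2, Lum, Nid2 and Thbs1 and ended the calls of Fbln5 (adjusted p = 0.055), Nid1 (0.093), Lamb1 (0.069) and Tnxb (0.071), and the proteoglycan median was -0.52. With the mean of all probe sets the proteoglycan median was -0.74 and the elastic fibre median -0.37, which was -0.28 when genes below the median expression were dropped. With the most variable probe set the basement membrane median was -0.72. Uncalled genes that changed sign were Eln (0.05 after quantile normalization again, 0.00 with the mean of probe sets and without wild-type replicates 2 and 4, 0.34 with the block, and -0.21 to 0.18 with 1 array left out), Mfap5 (-0.33 to 0.63 with 1 array left out), Hspg2 (0.06 with the block) and Thbs2 (-0.03 with the mean of probe sets, -0.06 with the most variable one). The cause of these changes was not tested.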
